A study of Sus scrofa with 4 samples.

Results

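Macrophage identity genes were examined in the thymus of pigs with a disrupted IL2RG gene, which encodes the common gamma chain shared by several interleukin receptors. The genes were AIF1, CD68, CSF1R, MRC1, MSR1, SIGLEC1, LYZ and ANPEP. They were chosen by name, with earlier results of these data known, and every array probe whose RefSeq accession belonged to one of them was used. In all, 5 of the 8 genes had such a probe, and together they had 10 of the 43603 probes on the array. Through RefSeq accessions 3020 genes in all had a probe. No probe could be given to CD68, CSF1R or MSR1 by accession, although probes without a usable accession may cover them, so that the receptor through which the growth factor CSF1 sustains macrophages was not measured here.

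RNA of whole thymus from Minnesota miniature swine was hybridised to single-colour Agilent porcine arrays, with 2 arrays for KO and 2 for WT. The KO pigs are labelled IL2RG+/- and were cloned by nuclear transfer from cells in which TALEN nucleases had cut exon 2 of 1 IL2RG allele, and the WT pigs carried no such change. Most KO pigs had no thymus, and the arrays came from KO pigs with a rudimentary one, so that the KO samples stand only for animals that kept some thymic tissue. Neither group received a treatment in the sources used here. By the paper's account most KO pigs died within a week of birth, and 1 was analysed at an age of months. The sources do not give the age of the pigs on these arrays or the donor clone of each KO pig. Nor do they say whether the WT arrays came from separate animals. The p-values then measure the spread between these arrays alone. KO replicate 1 shared slide 1 with WT replicate 2, and KO replicate 2 shared slide 2 with WT replicate 1.

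Macrophages are phagocytes that clear dying cells, debris and microbes. In a normal thymus they take up the many thymocytes that fail selection. Their identity is usually read from receptors that bind sugars or modified lipoproteins, from enzymes of the lysosome or cell surface, and from intracellular proteins of the myeloid lineage, and several of these genes are also active in other cells.

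Signals are given as log2 of the processed spot signal after subtraction of the array's 75th percentile. A value of 0 is therefore the 75th percentile, and 1 unit is a factor of 2. The text gives a fold change as KO minus WT on that scale with its standard error from limma. A probe was called at a Benjamini-Hochberg adjusted p under 0.05, taken over all 31959 probes tested, and a change of at least 2-fold.

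All 5 measured macrophage identity genes rose in KO thymus, by 3.54-fold to 8.29-fold. All 10 of their probes were called higher and passed as well above background on each of the 4 arrays, and the KO arrays lay above the WT arrays without overlap. Many other probes did the same. Of all probes tested, 21.0% were called higher in KO and 13.0% lower, and 37.7% had both KO arrays above both WT arrays. With 1 probe per gene, 25.2% of the named genes were called higher and 12.6% lower. The median log2 fold change was 2.20 over the 5 genes and -0.06 over all probes tested. In RNA of whole tissue, more cells of a type and more RNA per cell cannot be told apart.

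On the 4 arrays, 67.9% to 74.5% of spots were well above background, more in KO than in WT, the 75th percentile lay between 617 and 758 signal units, and 0 spots were saturated. Of the probes tested, 2.34% differed 2-fold or more between the KO arrays and 8.79% between the WT arrays. IL2RG itself read -3.15 and -3.29 in KO against -0.13 and 0.52 in WT, or 10.7-fold less in KO (log2 fold change -3.41, SE 0.27, limma adjusted p 0.00256), and its other probe gave -4.38. Where these probes lie relative to the cut was not determined. The label of the tissue was checked on 13 thymocyte genes, which include RAG1, RAG2 and PTCRA. All 13 were well above background in WT. In KO all 13 were called lower, so this check bears on the WT arrays alone. RAG2, which cuts the antigen receptor genes, read -5.91 and -7.79 in KO, with only KO replicate 1 well above background, against 0.62 and 1.20 in WT.

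**Figure D1:**
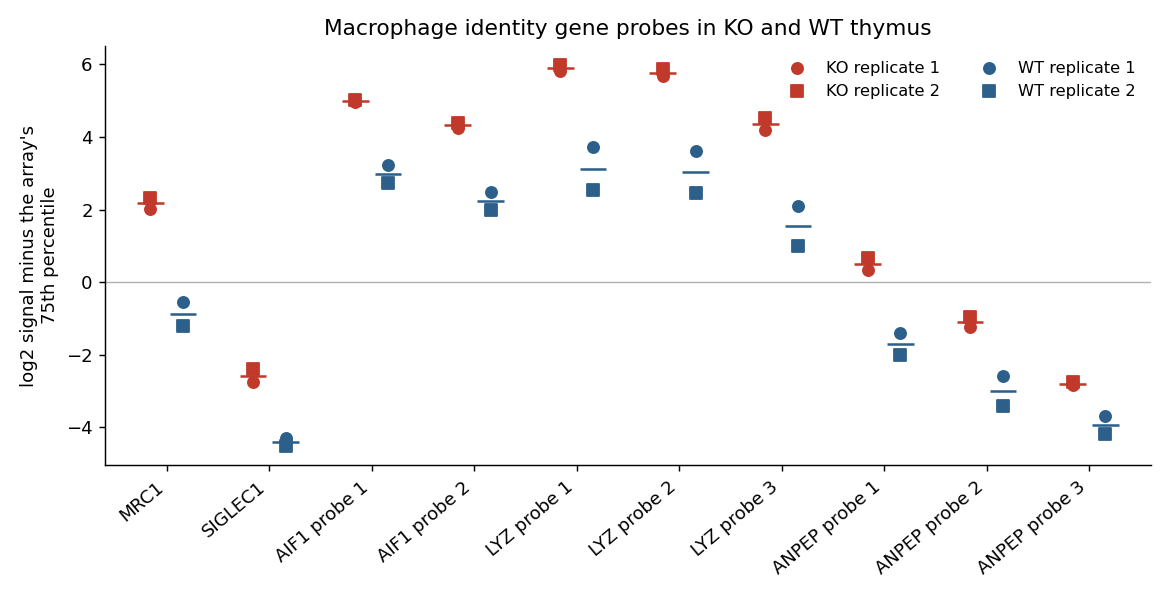
Log2 signal of each macrophage identity gene probe relative to the 75th percentile of its array (y axis), for the 10 probes of 5 genes (x axis). Red points are KO arrays, blue points are WT arrays, circles are replicate 1 and squares replicate 2, and the bars are group means. At each of the 10 probes both KO arrays lie above both WT arrays, and the LYZ probes have WT arrays more than 1 log2 unit apart. Heights of different probes are not comparable with each other.

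Among the surface receptors, MRC1, the mannose receptor that takes up glycoproteins and microbes with exposed mannose, had the largest change of the 5 genes. Its probe read 2.03 and 2.33 in KO replicates 1 and 2 and -0.53 and -1.22 in WT replicates 1 and 2. These values correspond to scanner signals of 3103 and 3491 in KO against 429 and 299 in WT. The KO mean was 2.18 ± 0.21 (SD, n = 2) and the WT mean -0.87 ± 0.48 (SD, n = 2). The lower KO array stood 2.56 above the higher WT array, and the rise was 8.29-fold (log2 fold change 3.05, SE 0.29, limma adjusted p 0.00348).

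SIGLEC1, or sialoadhesin, is a receptor for sialic acid on macrophages, and had 1 probe with a low signal. It read -2.75 and -2.40 in KO and -4.28 and -4.52 in WT. KO signals were 113 and 131 units and WT signals 31.9 and 30.3, while the local background around these spots, which is subtracted from the processed signal, was 31 to 37 units. The groups did not overlap, and the rise was 3.54-fold (log2 fold change 1.82, SE 0.21, limma adjusted p 0.00481). The normexp background correction was run with an offset of 50 added to every signal, which shrinks changes most where signals are dim. Under it the log2 fold change was 0.80 (limma adjusted p 0.00778), under the 2-fold threshold, so the call of SIGLEC1 ended under that correction.

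AIF1 encodes a calcium-binding, actin-bundling protein of the cytoplasm that is widely used to stain macrophages and microglia. Its brighter probe read 4.95 and 5.02 in KO, while WT read 3.23 and 2.74, or 23592 and 22542 scanner units against 5842 and 4627. The KO arrays were 0.07 apart, the closest of the 5 genes, and the WT arrays 0.50 apart. KO was higher without overlap, by 4.00-fold (log2 fold change 2.00, SE 0.23, limma adjusted p 0.00480). The dimmer probe gave 2.10, within 1 standard error of the brighter one.

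The enzymes were LYZ and ANPEP. LYZ, the secreted lysozyme that cleaves bacterial cell walls, is made by macrophages and also by neutrophils and some epithelia. Its brightest probe read 5.81 and 5.98 in KO, while WT read 3.71 and 2.54, with scanner signals of 42689 and 43876 against 8148 and 4043. The KO arrays were close to each other, whereas WT replicate 1 was 2.26-fold above WT replicate 2; 6.00% of all probes tested had WT arrays at least as far apart. The groups still did not overlap, and the rise was 6.80-fold (log2 fold change 2.77, SE 0.43, limma adjusted p 0.00957). The other probes of LYZ gave 2.74 and 2.81 with the same gap in WT, of 1.16 and 1.12.

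ANPEP, aminopeptidase N or CD13, trims peptides at the surface of myeloid cells and of many epithelial and stromal cells. Its brightest probe read 0.33 and 0.65 in KO, while WT read -1.39 and -2.02, a rise of 4.58-fold (log2 fold change 2.20, SE 0.28, limma adjusted p 0.00623). The probes of ANPEP did not give the same size of change. The second gave 1.90 (SE 0.33) at KO signals of 322 and 359 units against 103 and 65.8 in WT. The third gave 1.13 (SE 0.23, limma adjusted p 0.0181) at 108 and 103 units against 48.6 and 38.5, and there the lowest KO array was only 0.85 above the highest WT array. All 3 were called.

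**Figure D2:**
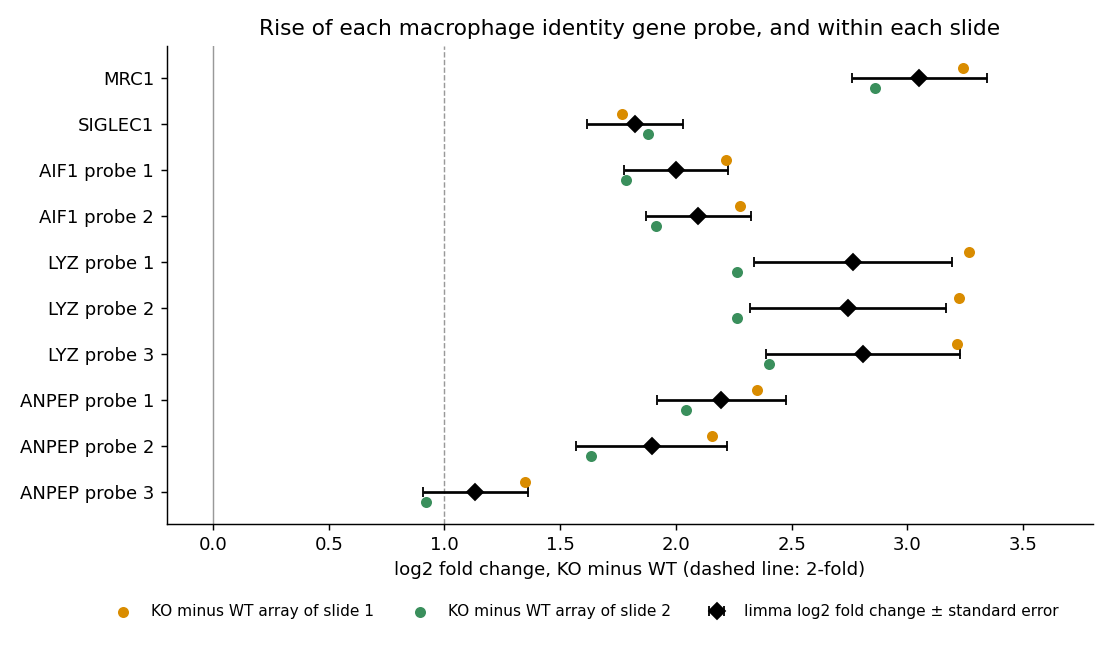
Log2 fold change of KO minus WT (x axis) for each of the 10 macrophage identity gene probes (y axis). Black diamonds and bars are the limma estimate and its standard error over 4 arrays, orange points the difference between the KO and WT arrays of slide 1 and green points that of slide 2. The estimates run from 1.13 for the third ANPEP probe to 3.05 for MRC1, and the dashed line marks 2-fold.

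By size of change the genes followed the order MRC1, LYZ, ANPEP, AIF1, SIGLEC1. The difference between neighbours in this order was at most 2.01 times its standard error. When 2 genes were subtracted within each array, the change of MRC1 exceeded that of LYZ by 0.29 (SE 0.25), with -0.02 on slide 1 and 0.60 on slide 2. LYZ exceeded ANPEP by 0.57 (SE 0.28), ANPEP exceeded AIF1 by 0.20 (SE 0.14), and AIF1 exceeded SIGLEC1 by 0.18 (SE 0.19). The ends of the order lay farther apart, MRC1 exceeding SIGLEC1 by 1.23 (SE 0.22), with 1.47 on slide 1 and 0.98 on slide 2. These differences are given as a description with standard errors on 2 degrees of freedom, and no test was run on them.

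Within each slide, where 1 KO and 1 WT array were hybridised side by side, every one of the 5 genes was higher in KO. On slide 1 the log2 differences were 3.24 for MRC1, 1.77 for SIGLEC1, 2.22 for AIF1, 3.27 for LYZ and 2.35 for ANPEP. On slide 2 they were 2.86 for MRC1, 1.88 for SIGLEC1, 1.78 for AIF1, 2.27 for LYZ and 2.04 for ANPEP. LYZ differed most between the slides, and slide 1 held the WT array with the lower LYZ signal. The median over the 5 genes was 2.35 on slide 1 and 2.04 on slide 2. When each array was left out in turn, all 5 genes were called each time, and the highest adjusted p was 0.0451, for LYZ without KO replicate 2.

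The 5 genes were also ordered alike within each genotype. WT replicate 1 was above WT replicate 2 at all 5, by 0.68 for MRC1, 0.24 for SIGLEC1, 0.50 for AIF1, 1.17 for LYZ and 0.63 for ANPEP. KO replicate 2 was above KO replicate 1 at all 5, by 0.07 for AIF1 to 0.35 for SIGLEC1. Over all probes tested, 49.8% were higher in WT replicate 1 than in WT replicate 2 and 50.2% were higher in KO replicate 2 than in KO replicate 1. WT replicate 1 and KO replicate 2 were both on slide 2, so a difference between samples and one between slides cannot be told apart. These are differences between single arrays and carry no test.

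Genes of several other cell types also differed between the WT arrays. All 5 measured neutrophil genes were higher in WT replicate 1 than in WT replicate 2, by a median of 3.59. So were all 4 fibroblast genes (median 0.97), all 4 endothelial genes (0.81) and all 4 adipocyte genes (1.14). Of the 13 thymocyte genes 0 were (median -0.42). PROX1, of the endothelial list, was not well above background on either WT array, nor was PLIN1, an adipocyte gene, on WT replicate 2. In KO, replicate 2 was above replicate 1 at all neutrophil (median 1.80), fibroblast (0.63) and adipocyte (1.53) genes. So it was at 3 of 4 endothelial genes (0.12) and 5 of 13 thymocyte genes (-0.13). WT replicate 1 and KO replicate 2 shared slide 2, so sample and slide cannot be told apart here. S100A8, which encodes a calcium-binding protein abundant in neutrophils and was named after its values were seen, read 5.12 and 1.14 in WT and -1.43 and 0.97 in KO. Summed over the list, neutrophil signal was 117 and 16.2 in WT and 4.87 and 11.1 in KO, in multiples of the array's 75th percentile. Between genotypes the summed neutrophil signal was lower in both KO arrays than in either WT array. LTF, which read 1.05 in KO replicate 2 and 0.17 in WT replicate 2, was the only one of the 5 genes with overlap. Of the 5 genes, 4 were not called, LTF among them. The part of neutrophils in the LYZ signal was not tested.

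**Figure D3:**
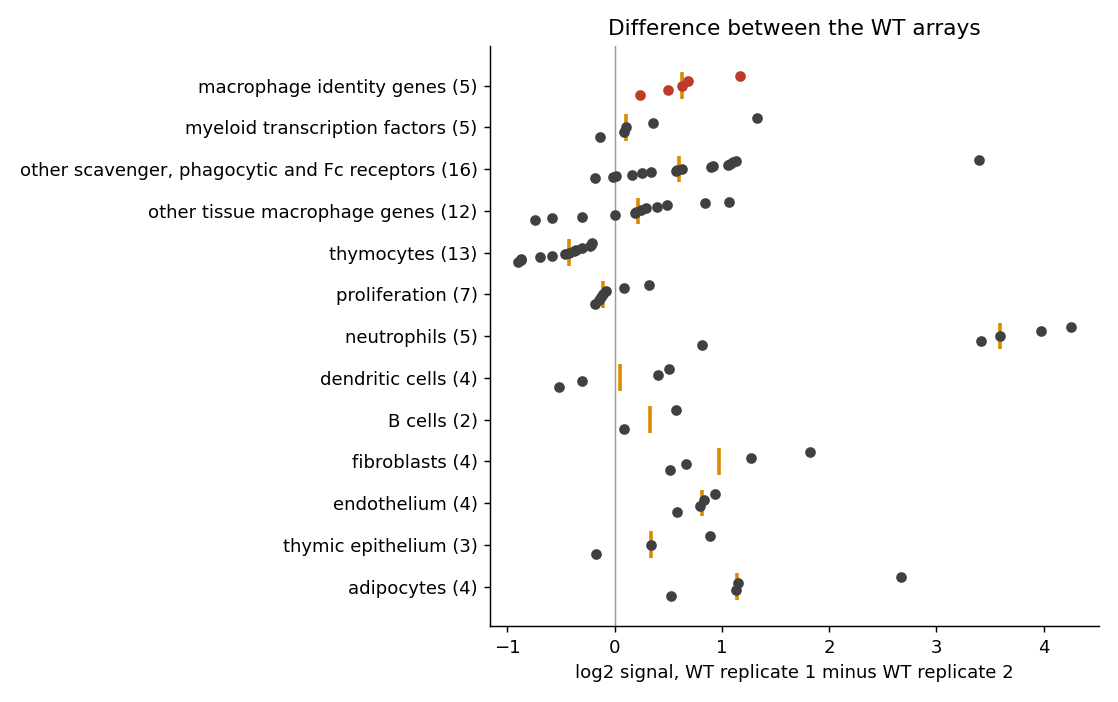
Difference in log2 signal between WT replicate 1 and WT replicate 2 (x axis) for each measured gene of the macrophage identity set (red) and of 12 other lists (grey), with the number of genes in brackets. Orange bars are list medians. The 5 macrophage identity genes lie between 0.24 and 1.17, the neutrophil list has a median of 3.59, and all 13 thymocyte genes lie below 0.

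Genes of the macrophage programme outside the chosen set were examined as fixed lists, also picked with earlier results of these data known. Among transcription factors of the myeloid lineage, 5 of 13 were tested, 4 rose, 0 fell and KLF4, at 1.43 (limma adjusted p 0.0804), was not called, with a median of 1.68. With the slide as a block KLF4 was called (adjusted p 0.0237), as it was under normexp. CEBPB, which drives inflammatory gene expression in myeloid cells, rose by 1.88 (SE 0.25), SPI1, the master regulator of the lineage also called PU.1, by 1.70 (SE 0.19), MITF, a regulator of lysosomal genes, by 1.68 (SE 0.15), and NR1H3, the sterol-sensing receptor LXR alpha, by 1.04 (SE 0.19). Of the 3 probes of NR1H3 only 1 was called higher, and of the 7 probes of KLF4, 2 were. SPI1 read -3.18 and -3.21 in KO, while WT read -4.71 and -5.07. Under normexp SPI1 fell under the 2-fold threshold at 0.59 and CEBPB at 0.68, and under scaling to the median NR1H3 did at 0.78.

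Of 26 scavenger, phagocytic and Fc receptors, 16 were tested, 10 rose, 0 fell and 6 were not called, with a median of 1.71. FCGR1A, the high-affinity receptor for IgG, rose by 2.71 (SE 0.42), and CD36, a receptor for oxidised lipoproteins and dying cells that adipocytes and endothelium also make, rose by 2.66 (SE 0.61). The smallest called rises were those of FCER1G, the signalling chain of Fc receptors, at 1.65 (SE 0.42), and of CLEC7A, the beta-glucan receptor dectin-1, at 1.69 (SE 0.16); under normexp CLEC7A was at 0.89 and was not called. The haemoglobin scavenger receptor CD163, a tissue macrophage marker in pigs, read 4.53 and 5.10 in KO, while WT read 2.85 and 2.86, a rise of 1.96 (SE 0.24, limma adjusted p 0.00590), and all 4 of its probes were called higher. Not every receptor of phagocytes moved this way. ITGB2, the beta-2 integrin of all leukocytes, was at -0.25 (SE 0.18) and TREM2, a lipid-sensing receptor, at -0.50 (SE 0.23), neither of them called. These were named after their values were seen. The count of 10 fell to 4 without KO replicate 2, with a median of 1.66.

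Of 15 other genes of tissue macrophages, 12 were tested, 9 rose, 0 fell and 3 were not called, with a median of 1.54. The highest was CCL2, the chemokine that draws monocytes and that stromal cells also make, which read 4.18 and 4.22 in KO, while WT read 1.11 and 0.91, a rise of 3.19 (SE 0.16). C1QA, a chain of the complement component C1q that tissue macrophages secrete, rose by 2.39 (SE 0.23), and the other chains moved with it, C1QB by 2.34 and C1QC by 2.23. CYBB, the large subunit of the phagocyte oxidase, listed under the symbol GP91-PHOX, rose by 2.33 (SE 0.41). CD86, a costimulatory ligand, rose by 1.27 (SE 0.21), and CD5L, a protein secreted by tissue macrophages, by 1.35 (SE 0.34). Of the 4 probes of CD5L, 2 were called higher. CD5L was no longer called after scaling to the median, at 1.09, or with the slide as a block (limma adjusted p 0.0581). SPP1 (-0.20), GPNMB (0.38) and SLC11A1 (0.47) were not called by their brightest probes, though 1 of the 2 probes of SLC11A1 was called higher. C1QB, C1QC, CYBB and the genes not called were named after their values were seen. The count of 9 was 6 without KO replicate 1 and 4 without KO replicate 2.

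The signal relay of the CSF1 receptor could not be followed, since 1 of 12 genes was measured, the adaptor GRB2, at -0.26 (limma adjusted p 0.301). No gene of 5 other Siglecs and none of 5 erythroid genes was measured.

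**Figure D4:**
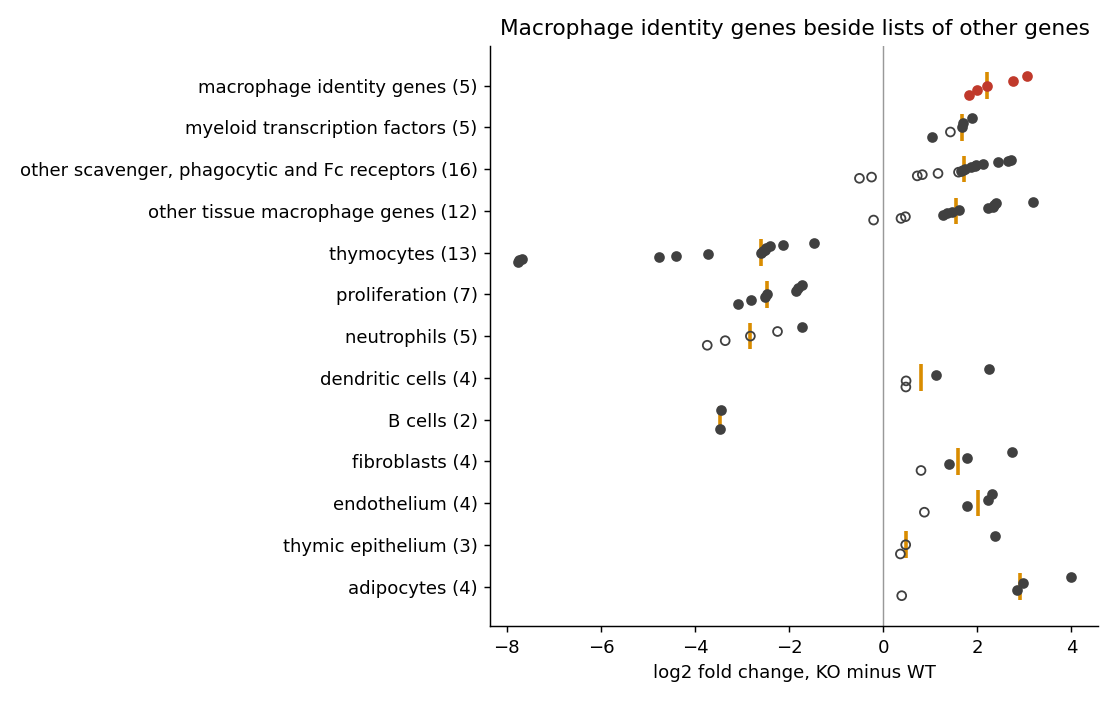
Log2 fold change of KO minus WT (x axis) for each measured gene of the macrophage identity set (red) and of 12 other lists (grey), by the brightest probe, with the number of genes in brackets. Filled points were called, open points were not, and orange bars are list medians. The macrophage identity genes lie between 1.82 and 3.05, while the thymocyte, proliferation, neutrophil and B cell lists have all genes below 0.

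The rise stood beside lower signals of lymphoid and cycling cells and higher signals of stromal cells. All 13 thymocyte genes fell, with a median of -2.60, from -7.76 for RAG2 and -7.74 for PTCRA to -2.12 for CD3D and -1.47 for CD2. All 7 measured genes of proliferation fell, with a median of -2.48, among them PBK by 3.09 and TOP2A by 2.81, and BLM by 1.81 and AURKB by 1.73 at the small end. In multiples of the 75th percentile, summed thymocyte signal was 36.3 and 34.7 in KO against 241 and 338 in WT, and summed macrophage identity signal was 92.4 and 102 in KO against 23.7 and 13.2 in WT. Such sums, here and for the other lists, weight bright probes most. LYZ and AIF1, the brightest of the macrophage identity genes, made up most of their sum on every array, and MRC1, ANPEP and SIGLEC1 added little. By these sums, the WT array with less thymocyte signal had more macrophage identity signal, as did the KO arrays against WT. The WT arrays were on different slides, and a relation between the sums was not tested.

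Of the fibroblast genes, 3 of 4 rose, LUM by 2.73, DCN by 1.79 and COL1A2 by 1.39, and THY1 was not called. Of the endothelial genes, 3 of 4 rose, CDH5 by 2.32, VWF by 2.23 and PECAM1 by 1.79, and PROX1 was not called. Of the adipocyte genes, 3 of 4 rose, PLIN1, which was not well above background in WT replicate 2, by 3.99, ADIPOQ by 2.98 and FABP4 by 2.84, and LEP was not called; FABP4 is also made by some macrophages and endothelium. Summed fibroblast signal was 115 and 175 in KO against 63.2 and 27.3 in WT, summed endothelial signal 16.8 and 18.3 against 5.35 and 3.11, and summed adipocyte signal 35.4 and 104 against 12.8 and 5.89. The list medians were 1.59, 2.01 and 2.91, on either side of the 2.20 of the macrophage identity genes. The part of these cell types, and of the lower share of thymocyte RNA, in the rise was not tested. Of 5 neutrophil genes 0 rose, and MMP9, the gelatinase of neutrophils and macrophages, was called lower at -1.73; the count called lower was 0 without either KO array, 5 without WT replicate 2 and 4 with the slide as a block, where S100A8, S100A9 and S100A12 were called too.

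The fibroblast and adipocyte counts changed when single arrays were left out. Without KO replicate 1 or without KO replicate 2, 0 of 4 fibroblast genes were called higher, with medians of 1.90 and 1.28, and with the replicate block 1 was. The adipocyte count was 0 without KO replicate 2 and 1 without WT replicate 2, and under normexp PLIN1 was not called, at 0.98. The endothelial count was 2 without either KO array, and the thymocyte and proliferation counts kept their size whichever array was left out.

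Among 2433 named genes outside these lists detected well above background throughout, those closest to the median profile of the 5 macrophage identity genes were C3, IFNGR2, IL4, KCNE3 and PC. Likeness was the root mean square difference of log2 signals centred on each gene's mean over 4 arrays, and it was 0.04 for C3 and IFNGR2, 0.05 for IL4, 0.07 for KCNE3 and 0.08 for PC. C3, the central component of complement, read 4.50 and 4.86 in KO and 2.85 and 2.21 in WT. IFNGR2, a chain of the interferon gamma receptor, read 2.85 and 3.04 in KO and 1.05 and 0.39 in WT. IL4 was dim, at -3.47 and -3.20 in KO and -5.36 and -5.86 in WT. The lowest values that passed as well above background were -5.71 on WT replicate 1 and -5.91 on WT replicate 2. With 4 arrays such profiles are set mostly by the difference between genotypes. Of the chosen genes ANPEP lay closest to their own median, at 0.02, and MRC1 farthest, at 0.42.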

How the data were processed

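Gene expression was measured in thymus RNA on 4 Agilent porcine arrays, 2 per genotype, grouped by the sample titles. Intensity values were deposited by the authors as the scanner output of Agilent Feature Extraction, version 11.0.1.1, with the processed signal background-subtracted and not normalized between arrays. A deposited table of log2 values, when set against the scanner output, held quantile normalized signals of 27970 probes, all of them well above background throughout. Its direction is that of the signal, with a median of 8.49 on each array. The labels and files give 1 colour, although the methods describe 2 dyes.

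Here, control and outlier spots were left out, which removed 6 probes. Log2 processed signal minus the 75th percentile of each array was averaged over spots of a probe. A probe had to be well above background on both KO arrays or both WT arrays, and was then fitted with lmFit and eBayes of limma 3.58.1 in R 4.3.3, with no block. The Benjamini-Hochberg adjustment covered 31959 probes. This fit was run on simulated data with known changes and independent noise on each array. The simulation held no deviation shared by arrays of a slide, so it does not cover that feature of these data. Tables and plots used Python 3.11.15, pandas 2.3.3, numpy 2.4.6 and matplotlib 3.10.9. RefSeq accessions named 6686 probes of 3020 genes (15.3% of probes) through a table of the Sscrofa11.1 assembly, used for names alone. A gene was represented by its brightest probe.

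The methods name an unpaired t-test with Bonferroni correction, run here as an alternative. Further alternatives were scaling to the median, quantile normalization, normexp with an offset of 50 on median spot and background intensity, the deposited log2 values, the filters on dim probes, the slide or replicate number as a block, an intensity trend, the median over the probes of a gene, and each array left out. Within each list of the 16 used, the genes named were the 2 highest and 2 lowest among those called, besides IL2RG and CD163. Genes named as not called, the S100 genes, and those said to be so in the text were named after their values were seen. Outside the lists, the 5 genes nearest in profile were named. The chosen genes and lists were picked with earlier results of these data known, so lists are described by counts and medians and were not tested. The number of arrays limits the precision, and an exact two-sided permutation test of 1 gene cannot go below p = 0.333. A marker gene of 1 list is not reported here, and the list was computed without it. Spleen arrays were not analysed here.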

Additional observations from a re-analysis of the deposited data

How the results depend on the processing

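All 5 macrophage identity genes kept their direction under every alternative run, and 5 were called under each of them other than normexp and the methods' t-test after correction for multiple tests. Under normexp 4 were called, SIGLEC1 being at 0.80, and 6622 probes were called against 10882 with the processed signal, both with limma. The methods' t-test with Bonferroni called 0 probes and 0 of the 5 genes. With Benjamini-Hochberg it called 1505 probes and 0 of the 5 genes, whose adjusted p lay between 0.0672 and 0.107, and unadjusted it called 8611 probes and 5 genes. In these t-tests the log2 fold changes were as with limma, 2.00 for AIF1, 3.05 for MRC1, 1.82 for SIGLEC1, 2.77 for LYZ and 2.20 for ANPEP, and only the p-value differed.

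With each array left out, the number of probes called ran from 6093 without KO replicate 2 to 12713 without WT replicate 1, and was 6424 without KO replicate 1. There the lone array was assumed to vary like those of the other genotype. The changes ran from 1.75 to 2.25 for AIF1, 2.71 to 3.39 for MRC1, 1.65 to 2.00 for SIGLEC1, 2.18 to 3.35 for LYZ and 1.88 to 2.51 for ANPEP. Arrays of the same replicate number deviated in opposite directions over probes (r = -0.29, across probes, which are not independent). Those of the same slide deviated in the same direction (r = 0.29). With the replicate block, all 5 genes were called, with adjusted p up to 0.0123, as were 10668 probes. The crossed pairing, added after the data were seen and equal to the slide as a block, called 5 genes and 11124 probes.

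Scaling to the median moved the median of all probes from -0.06 to -0.32 and the share of higher among called probes from 61.7% to 47.8%, with 5810 higher and 6334 lower. The lowest change of a macrophage identity gene was then 1.56, for SIGLEC1. Dim probes such as those of SIGLEC1 and SPI1 depend most on the background correction here. No array repeats a sample, so technical spread is unknown.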

Other observations

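Dendritic cells and macrophages share much of the myeloid programme. Of 10 dendritic cell genes 4 were tested, and 2 rose. CD80, a costimulatory ligand, read -1.46 and -1.55 in KO, while WT read -4.01 and -3.49, a rise of 2.25 (SE 0.23), and XCR1, the chemokine receptor of cross-presenting dendritic cells, rose by 1.13 (SE 0.20), or to 0.87 and without a call after scaling to the median. Of the 2 probes of XCR1, 1 was called higher. CCR7 and FSCN1, of migrating dendritic cells, were at 0.48 and 0.49 and were not called. With KO replicate 1, KO replicate 2 or WT replicate 2 left out, 1 of the 4 was called.

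Both B cell genes described here fell, with a median of -3.46. CD79A, a chain of the B cell receptor, read -3.58 and -3.78 in KO and -0.16 and -0.25 in WT. MS4A1, which encodes CD20, was measured well above background on 1 of 2 KO arrays and changed by -3.45 (SE 0.29). Of the thymic epithelial genes, KRT8, a keratin of simple epithelia, rose by 2.37 (SE 0.33), while CCL25, the chemokine of thymic epithelium, was at 0.48 and EPCAM at 0.37, neither of them called.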
